A study of Mus musculus with 6 samples.

Results

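Mitochondrial biogenesis and maintenance of mitochondrial DNA (mtDNA) were followed in articular cartilage through 10 genes, chosen by name and each represented by 1 row among the 33971 genes measured. They are the coactivators Ppargc1a and Ppargc1b, the nuclear transcription factors Nrf1 and Esrra, the mtDNA transcription genes Tfam, Tfb2m and Polrmt, and the mtDNA replication genes Polg, Polg2 and Twnk. RNA sequencing had been performed on cartilage of wild-type (WT) mice aged 2 months (young) and 18 months (aged), with 3 libraries at each age. The comparison asks how RNA levels in aged cartilage differed from those in young cartilage. The strain was not given in the sources used here, neither was the number of animals behind a library, so p-values measure the spread between these libraries, which may be technical. All 10 genes passed the filter on low counts and were among the 20397 genes tested.

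Mitochondria carry a small circular genome whose copying and transcription depend on proteins encoded in the nucleus. The coactivators of the PGC-1 family bind nuclear transcription factors such as NRF1 and the estrogen-related receptor alpha, which switch on genes for respiratory chain subunits and for the mtDNA machinery. TFAM packages mtDNA and, with TFB2M and the RNA polymerase POLRMT, starts its transcription, while polymerase gamma (POLG with its accessory subunit POLG2) and the helicase Twinkle (TWNK) copy it. Chondrocytes, the resident cells of cartilage, live with little oxygen and are known for relying largely on glycolysis.

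The libraries held between 48171507 and 59085179 counts. The summed shares of several cell type marker lists differed between the ages in these libraries. The 16 chondrocyte markers made up 4.58% to 7.08% of the counts in young and 0.0635% to 0.170% in aged cartilage, and no marker was at 0 in every library of an age. The 14 neutrophil markers made up 0.00174% to 0.565% in young and 4.32% to 4.63% in aged libraries, and the 11 erythroid markers measured made up 0.0247% to 0.664% and 2.73% to 3.61%. Young replicate 2 held the highest share of both among the young libraries. The 7 adipocyte markers measured made up 0.00175% to 0.00683% in young and 0.0162% to 0.0197% in aged libraries. By adjusted p alone 16 of the 16 chondrocyte markers passed and fell (edgeR). Of the neutrophil markers 0 of 14 passed, and of the erythroid markers 3 of 11, where 51.3% of all genes tested did. Without young replicate 2, 13 of the 14 and 11 of the 11 passed, all higher, where 60.3% of all genes tested did. With DESeq2 and all libraries 11 and 9 passed, all higher, where 13554 of 33836 genes did. In bulk tissue, fewer cells of a type and less RNA per cell cannot be told apart. Every aged library had a lower chondrocyte share and higher neutrophil and erythroid shares than every young library. Age and cell composition therefore cannot be told apart for the 10 genes or the genes around them. The methods describe male mice, yet Xist, the noncoding RNA that coats an inactive X, reached 88239 to 102417 counts in young and 11 to 30 in aged libraries. Ddx3y, a Y-linked gene, had 0 to 10 and 4333 to 4839 counts, so age and the sex pattern of the libraries cannot be told apart. Aged replicates 2 and 3 were the most alike, with a mean chi-square per gene of 8.48, where counting alone gives about 1, against 64.2 to 442.1 for the other replicate pairs.

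Of the 10 genes, 2 were past both limits of adjusted p below 0.05 and an absolute log2 fold change above 1, namely Esrra, which rose, and Ppargc1a, which fell. Of all genes tested, 36.3% were past these limits, 14.9% higher and 21.3% lower. By adjusted p alone 5 of the 10 changed, where 51.3% of all genes did. Nrf1, Esrra and Tfam rose and Ppargc1a and Tfb2m fell in aged cartilage, beside 23.4% of all genes that rose and 27.9% that fell. In the whole table that split was 4769 higher and 5688 lower, and 3922 higher and 7910 lower with limma on FPKM rescaled to TPM. The median log2 fold change of the 10 genes was 0.15, against -0.02 for all genes tested. TMM-scaled counts of young and aged libraries did not overlap for 6 of the genes, 4 higher and 2 lower in aged cartilage, where 68.6% of all genes had groups that did not overlap.

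**Figure D1:**
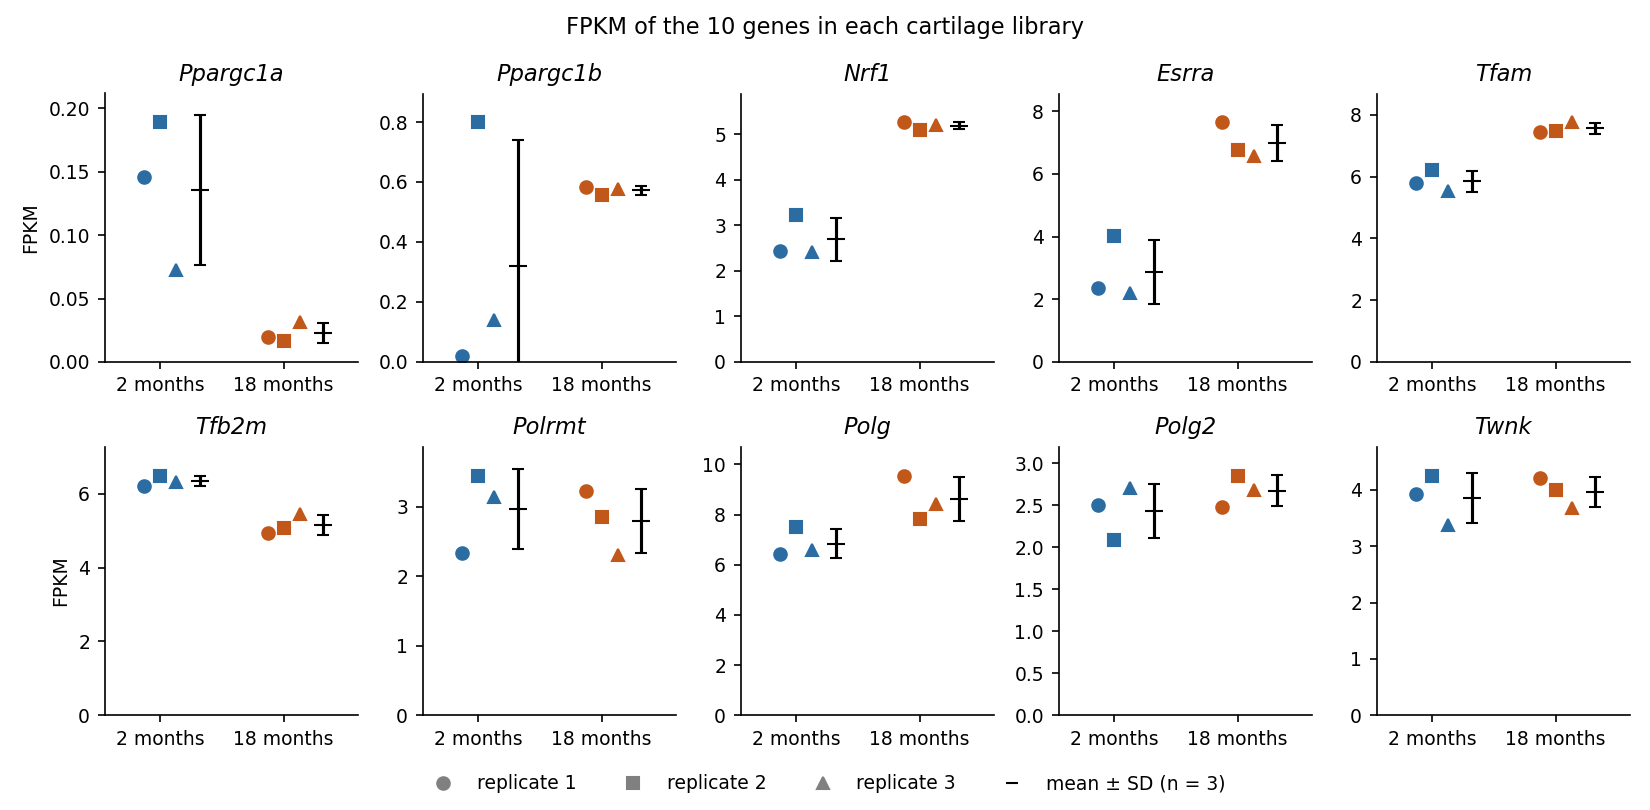
FPKM (fragments of a gene scaled by transcript length and by library size, each panel with its own axis from 0) of the 10 genes in the 3 young libraries (blue) and the 3 aged libraries (orange), with the mean ± SD beside the points. Ppargc1a, Nrf1, Esrra, Tfam, Tfb2m and Polg separate the ages, and young replicate 2 (square) lies above every aged library for Ppargc1b, whose lower SD limit falls below 0 and is not drawn.

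Ppargc1a encodes PGC-1alpha, the coactivator best known as the inducer of mitochondrial biogenesis in muscle, brown fat and other oxidative tissues. It was the lowest of the 10 genes by mean FPKM at both ages. Its FPKM was 0.146, 0.189 and 0.0726 in young replicates 1 to 3 and 0.0199, 0.0164 and 0.0314 in aged replicates 1 to 3. Every young library exceeded every aged library. The counts behind these values were 53, 73 and 27 in young and 9, 7 and 14 in aged cartilage. The mean FPKM was 0.136 ± 0.0589 (SD, n = 3) in young and 0.0226 ± 0.00786 (SD, n = 3) in aged cartilage. The transcript fell by 2.58 on the log2 scale (SE 0.53, 95% interval -3.88 to -1.28), which is 5.97-fold lower, with an adjusted p of 0.010 (edgeR). Its percentile among the tested genes was 10.6 to 18.0 in young and 4.09 to 5.52 in aged libraries. The 10 skeletal muscle markers, from a tissue rich in this transcript, made up 0.00154% to 0.00860% of the young and 0.000657% to 0.000873% of the aged counts. Of the 8 that were tested 5 fell and 0 rose, and Myh1 and Myh4 were at 0 in all aged libraries. The muscle share was 0.00154%, 0.00860% and 0.00479% in young replicates 1 to 3. Young replicate 2 was thus the highest young library for both the muscle share and Ppargc1a. Young replicate 1 had the lowest muscle share and an intermediate Ppargc1a level, and young replicate 3 the reverse. The part of muscle RNA in the difference was not tested.

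Sequence upstream of Ppargc1a is shown because this gene had the largest fall of the 10. The 120 bases before its start in RefSeq (GRCm38.p6, chr5:51567726-51567845, minus strand) read as follows, with capitals marking a core of the cyclic AMP response element (CRE), a motif bound by CREB1.
Ppargc1a: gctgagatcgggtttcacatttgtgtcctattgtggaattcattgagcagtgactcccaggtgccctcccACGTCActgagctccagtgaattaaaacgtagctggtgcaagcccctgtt
The core, searched as TGACGT on both strands, was present in 7.51% of the 32851 RefSeq promoter windows, each from 250 bases before to 50 bases after a start, and among the 9 of the 10 genes with a window it was found in Ppargc1a alone. A match is a description of letters and no measure of binding.

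Ppargc1b encodes PGC-1beta, a coactivator related to PGC-1alpha that works with estrogen-related receptors. Its levels in young cartilage were scattered, with an FPKM of 0.0196, 0.799 and 0.140 in replicates 1 to 3. The counts were 5, 187 and 32. In aged cartilage the FPKM was 0.583, 0.555 and 0.578, from 157, 140 and 148 counts. Aged libraries thus lay close together, with a coefficient of variation of 2.55%, against 131% in young cartilage. Young replicate 2 was above all aged libraries and the other two young libraries were below them. The log2 fold change was 0.82 (SE 1.06, 95% interval -1.79 to 3.43), with an adjusted p of 0.55. A spread among young libraries above that of Ppargc1b was seen in 10.5% of all genes tested. Without young replicate 2 the log2 fold change was 2.68 (SE 0.75) with an adjusted p of 0.025 (edgeR), past both limits. In that library the neutrophil markers made up 0.565% of counts, against 0.00174% and 0.0268% in the other young libraries and 4.32% to 4.63% in aged cartilage. The 10 monocyte and macrophage markers made up 0.129% there, 0.00267% and 0.0185% in the other young libraries and 0.706% to 0.903% in aged cartilage. The 10 osteoblast and osteocyte markers made up 1.75% there, 0.505% and 0.585% in the other young libraries and 0.340% to 0.359% in aged cartilage. In the same order the 10 B lymphocyte markers made up 0.0295%, 0.00105% and 0.00146%, and 0.0213% to 0.0251%. The part of any of these cells in the Ppargc1b values was not tested.

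The proportion of the coactivators was compared within each library. Ppargc1b FPKM divided by Ppargc1a FPKM was 0.135, 4.23 and 1.93 in young replicates 1 to 3 and 29.3, 33.9 and 18.4 in aged replicates 1 to 3. The groups did not overlap, and the exact permutation test gave a two-sided p of 0.10, the smallest that 3 libraries against 3 allow. It was 0.15 after Benjamini-Hochberg adjustment over all ratios taken, which were chosen after the values had been seen. The ratio rests on as few as 5 counts of Ppargc1b and 7 of Ppargc1a in a library.

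The nuclear transcription factors both rose. Nrf1 encodes nuclear respiratory factor 1, which binds GC-rich sites before many genes for respiratory chain and mtDNA proteins. Its FPKM was 2.45, 3.23 and 2.41 in young and 5.27, 5.11 and 5.20 in aged replicates 1 to 3. All aged libraries were above all young libraries. The means were 2.70 ± 0.466 (SD, n = 3) and 5.19 ± 0.0819 (SD, n = 3). Nrf1 rose by 0.87 on the log2 scale (SE 0.11, 95% interval 0.60 to 1.15), or 1.83-fold, with an adjusted p of 0.0026 (edgeR). With FPKM rescaled to TPM it was 0.52 with an adjusted p of 0.063 (limma).

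Esrra encodes the estrogen-related receptor alpha, an orphan nuclear receptor through which both PGC-1 coactivators act. Its FPKM was 2.35, 4.03 and 2.20 in young and 7.65, 6.75 and 6.58 in aged replicates 1 to 3. Young replicate 2 was the highest young library for this gene too, but lay below all aged libraries. Esrra rose by 1.22 on the log2 scale (SE 0.22, 95% interval 0.68 to 1.77), or 2.34-fold, with an adjusted p of 0.0069 (edgeR). Without young replicate 2 it was 1.52. With FPKM rescaled to TPM, a scaling that moved the median of all genes by -0.35, the rise of Esrra was 0.90 with an adjusted p of 0.040 (limma), below the fold limit, and 0 of the 10 genes were higher past both limits. Its row shares 73 bases with Trmt112 on the opposite strand, which had 718 to 984 counts in young and 1257 to 1472 in aged libraries, and whether the counting used strand was not given in the sources used here.

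Young replicate 2 had the highest TMM-scaled counts of the young libraries for 6 of the 10 genes, where it was highest for 43.1% of all genes tested. Leaving it out brought the genes past both limits to 3, with Ppargc1b and Esrra higher and Ppargc1a lower, where 44.6% of all genes tested were past them, 23.3% higher and 21.3% lower. By adjusted p alone 7 were past, the additional ones being Ppargc1b and Polg. This made 5 higher and 2 lower, where 60.3% of all genes were past it, 32% higher and 28.3% lower.

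**Figure D2:**
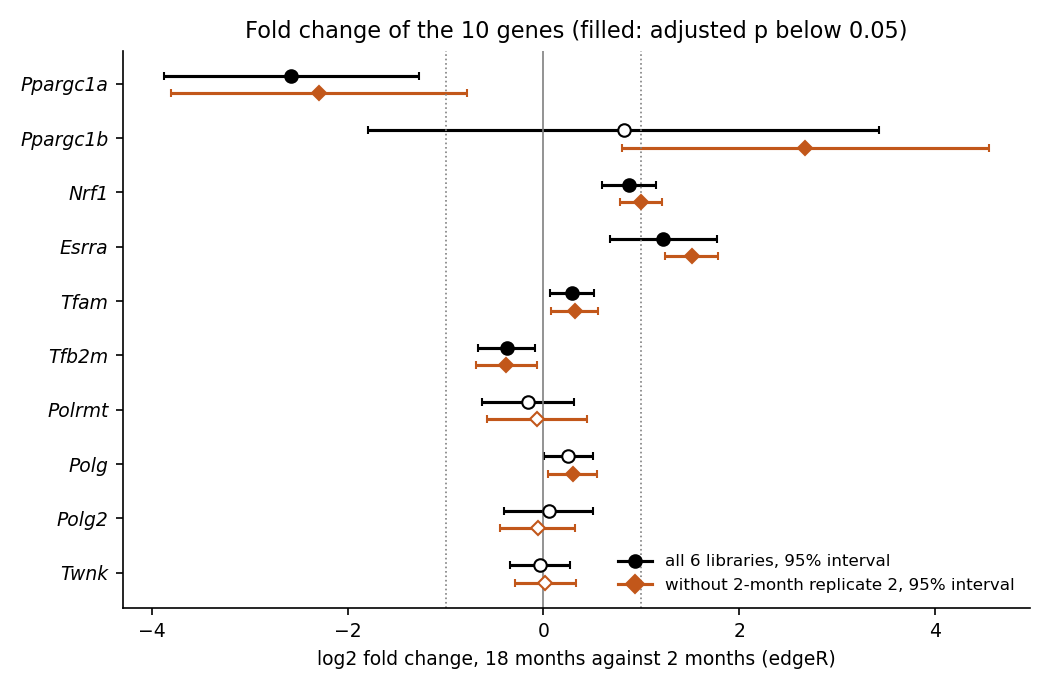
Log2 fold change of the 10 genes, aged against young, with its 95% interval from all 6 libraries (black circles) and without young replicate 2 (orange diamonds); filled symbols have an adjusted p below 0.05 and dotted lines mark the fold limits. Ppargc1b moves from 0.82 to 2.68 when that library is left out, and Polrmt, Polg2 and Twnk keep intervals that include 0 in both fits.

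The mtDNA transcription genes did not move together. Tfam, whose product bends and packages mtDNA and helps to start its transcription, had an FPKM of 5.80, 6.20 and 5.54 in young and 7.44, 7.47 and 7.76 in aged replicates 1 to 3. The groups did not overlap, and the means were 5.84 ± 0.333 (SD, n = 3) and 7.56 ± 0.172 (SD, n = 3). Tfam rose by 0.29 on the log2 scale (SE 0.09, 95% interval 0.07 to 0.52), or 1.23-fold, with an adjusted p of 0.039 (edgeR), but was -0.063 with FPKM rescaled to TPM. Tfb2m, which encodes the factor that melts the mtDNA promoter for the polymerase, moved the other way. Its FPKM was 6.22, 6.50 and 6.31 in young and 4.93, 5.07 and 5.46 in aged replicates 1 to 3. All aged libraries were below all young libraries. Tfb2m fell by 0.38 on the log2 scale (SE 0.12, 95% interval -0.66 to -0.09), with an adjusted p of 0.039 (edgeR). The calls of Tfam and Tfb2m were both near the threshold. With all libraries Tfb2m had an adjusted p of 0.064 with median-of-ratios size factors, 0.068 with total counts alone and 0.10 without a filter. With limma on FPKM at pseudocounts of 0.1 and 1 it was 0.055 and 0.061, and that of Tfam was 0.079 without a filter. With a replicate block Tfam had an adjusted p of 0.12 and Tfb2m of 0.098 (edgeR). Both genes passed with DESeq2, at 0.00026 and 0.026. With FPKM rescaled to TPM Tfb2m was -0.73 with an adjusted p of 0.0054 (limma). Both calls were also lost on leaving out single libraries. The adjusted p of Tfam rose to 0.079 without young replicate 1, 0.13 without young replicate 3, 0.11 without aged replicate 2 and 0.13 without aged replicate 3, and that of Tfb2m lay between 0.082 and 0.13 without any library other than young replicate 2.

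Polrmt, the mitochondrial RNA polymerase itself, had an FPKM of 2.33, 3.45 and 3.14 in young and 3.23, 2.86 and 2.31 in aged replicates 1 to 3. The groups overlapped. The log2 fold change was -0.16 (SE 0.19, 95% interval -0.63 to 0.31), with an adjusted p of 0.51 (edgeR).

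A ratio of FPKM values within a library does not depend on how the library is scaled, and 6 such ratios were taken, chosen after the values had been seen. Tfam divided by Tfb2m was 0.932, 0.954 and 0.877 in young and 1.51, 1.47 and 1.42 in aged replicates 1 to 3. Tfb2m thus exceeded Tfam slightly in every young library and Tfam exceeded Tfb2m in every aged library, with means of 0.921 ± 0.0398 (SD, n = 3) and 1.47 ± 0.0448 (SD, n = 3). Esrra divided by Nrf1 was 0.962, 1.25 and 0.916 in young and 1.45, 1.32 and 1.26 in aged replicates 1 to 3. Young replicate 2 came close to the lowest aged library for this ratio, with 1.25 against 1.26. Polg divided by Twnk, 1.64 to 1.95 and 1.96 to 2.29, did not overlap between the ages either, though the nearest libraries almost touched. Each of these 3 ratios had the smallest two-sided exact permutation p possible, 0.10, or 0.15 after Benjamini-Hochberg adjustment over the 6 ratios. Tfam divided by Polrmt (p = 0.20, exact permutation test) and Polg divided by Polg2 (p = 0.50, exact permutation test) overlapped between the ages.

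**Figure D3:**
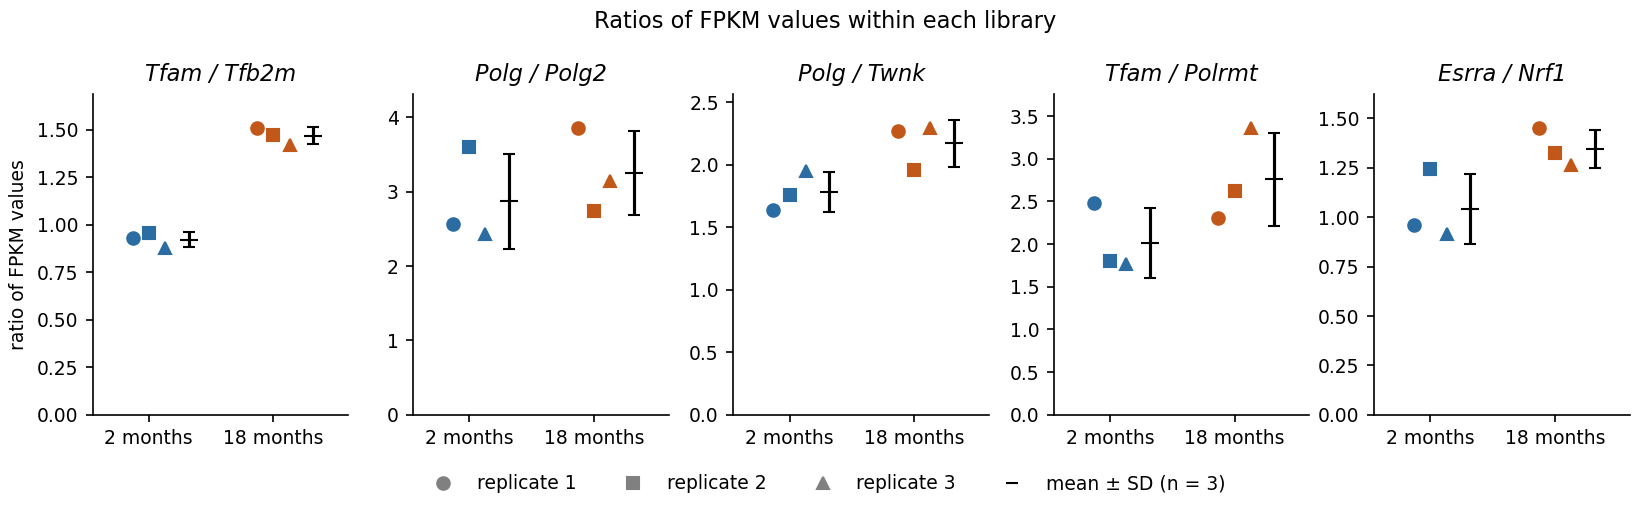
Ratios of FPKM values within each library for 5 pairs of the genes, young (blue) and aged (orange), with the mean ± SD beside the points and every axis starting at 0. Tfam / Tfb2m lies between 0.877 and 0.954 in young and between 1.42 and 1.51 in aged cartilage, while Polg / Polg2 overlaps between the ages.

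With TMM scaling and all libraries none of the 3 mtDNA replication genes passed the test in edgeR. Polg, the catalytic subunit of polymerase gamma, was the highest of the 10 genes by mean FPKM at both ages. Its FPKM was 6.44, 7.50 and 6.58 in young and 9.56, 7.82 and 8.44 in aged replicates 1 to 3. The groups did not overlap, but young replicate 2 lay close to aged replicate 2. The log2 fold change was 0.25 (SE 0.10, 95% interval 0.0042 to 0.50) with an adjusted p of 0.081, above the threshold. It was 0.31 with an adjusted p of 0.044 (edgeR) with median-of-ratios size factors, and -0.11 with FPKM rescaled to TPM. Without young replicate 2 it was 0.30 with an adjusted p of 0.045 (edgeR). Polg shares 4034 bases with Fanci on the opposite strand, a DNA repair gene that had 88 to 410 counts in young and 1355 to 1722 in aged libraries. Reads of the overlap cannot be assigned to either gene unless strand was used.

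Polg2, the accessory subunit that holds the polymerase on its template, had an FPKM of 2.50, 2.08 and 2.70 in young and 2.48, 2.85 and 2.68 in aged replicates 1 to 3. Twnk, the helicase that unwinds mtDNA ahead of the polymerase, had an FPKM of 3.93, 4.26 and 3.38 in young and 4.21, 4.0 and 3.68 in aged replicates 1 to 3. Both sets of groups overlapped. The log2 fold change was 0.05 (95% interval -0.41 to 0.51) for Polg2 and -0.04 (95% interval -0.34 to 0.27) for Twnk, with adjusted p of 0.83 and 0.83 (edgeR). Polg2 shares 542 bases with Milr1 and Twnk 780 bases with Mrpl43, both on the opposite strand. Milr1 had 35 to 381 counts in young and 2611 to 2706 in aged libraries, and Mrpl43 611 to 807 and 1391 to 1628. Of the 3 replication genes 0 passed the adjusted threshold in edgeR, 1 (Polg) had an unadjusted p below 0.05, and 1 (Polg) passed in DESeq2.

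A short motif was found in the promoter windows of 5 of the 6 genes of the mtDNA machinery, Tfb2m being without it. CCGGAAG, the core bound by the ETS factor GABPA (also known as nuclear respiratory factor 2), was present on either strand in 8.86% of the 32851 promoter windows and in the windows of 5 of the 9 genes with a window. These were Tfam, Polrmt, Polg, Polg2 and Twnk, all of them from the mtDNA transcription and replication groups. The sites are shown because this motif, of the 5 searched, was found in the most of these genes. The share of all windows was not matched for base composition. Each is given as 30 bases from RefSeq (GRCm38.p6), 5' to 3' on the strand of the gene, with the motif or its reverse complement CTTCCGG in capitals.
Tfam: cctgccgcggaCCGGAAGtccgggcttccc
Polrmt: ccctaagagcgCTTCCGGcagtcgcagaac
Polg: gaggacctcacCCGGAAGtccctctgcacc
Polg2: cgggtgacgctCTTCCGGgggcgtggtcta
Twnk, first site: ctaaccggtgaCTTCCGGttccggggttgt
Twnk, second site: ggagagttttgCTTCCGGagtcaccgcgag
The sites lie at chr10:71238073-71238102 (Tfam, 47 bases before the RefSeq start and overlapping an annotated Tfam exon), chr10:79746606-79746635 (Polrmt, 43 bases before), chr7:79466293-79466322 (Polg, 38 bases before and overlapping an annotated Polg exon) and chr11:106779548-106779577 (Polg2, 29 bases before), all on the minus strand. The Twnk sites lie on the plus strand at chr19:45006437-45006466, whose first bases overlap an exon of Mrpl43, and chr19:45006481-45006510. They are 110 and 66 bases before a start. Overlap with an exon means shared bases, and the motif itself need not lie in the exon. Among the 5 genes with the motif Tfam rose and Polrmt, Polg, Polg2 and Twnk did not pass the test.

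The other motifs were each found in 1 of the 9 genes with a window or in 0. The NRF1 site (GCGCA, any base, then GCGC), present in 4.6% of all windows, was found in Polrmt alone, as a pair of overlapping matches at its start. The estrogen-related receptor site AAGGTCA, present in 4.72% of windows, was found in Twnk alone, 123 bases before another of its starts. The YY1 site AAGATGGC, present in 2.75% of windows, was in 0 of the 9 genes. These counts say only which letters are in these windows.

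RNA of the mitochondrial genome itself was measured as well. Its 13 protein-coding transcripts made up 1.79%, 2.65% and 2.25% of the counts in young and 2.07%, 2.37% and 2.30% in aged replicates 1 to 3. The ages overlapped. Of the 13 transcripts 0 passed the adjusted threshold in edgeR, 0 had an unadjusted p below 0.05 and 0 passed in DESeq2, and their median log2 fold change was -0.10. With limma on FPKM rescaled to TPM 2 were lower, 5 had an unadjusted p below 0.05 and the median was -0.43. In edgeR 1 was lower without young replicate 1, and the median was 0.11 without young replicate 2. The libraries were made from poly(A) RNA, so the transcripts are a selected part of mitochondrial RNA, and mtDNA copy number was not measured.

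The regulators around the 10 genes were described with 18 further genes for coactivators, partner factors and upstream kinases, of which 17 were tested. Of these 0 were higher past both limits (0 also with an unadjusted p below 0.05 at this fold, and 1 in DESeq2) and 4 were lower. By adjusted p alone 6 rose and 4 fell, and the median was 0.10. Of all genes tested 14.9% were higher and 21.3% lower past both limits. Rxra, the retinoid X receptor that pairs with PPAR receptors, fell from 18.0 ± 2.16 to 5.57 ± 1.09 FPKM (SD, n = 3 each), a log2 fold change of -1.78 with an adjusted p of 0.0018 (edgeR). Ppard, the PPAR delta receptor, fell from 5.60 ± 1.19 to 1.98 ± 0.360 FPKM, a log2 fold change of -1.59 with an adjusted p of 0.0039. Prkaa2, a catalytic subunit of the AMP-activated kinase, fell from 1.29 ± 0.191 to 0.371 ± 0.0126 FPKM, a log2 fold change of -1.88 with an adjusted p of 0.0020. Ppara, the PPAR alpha receptor, rested on 58, 35 and 63 counts in young and 26, 4 and 6 in aged replicates 1 to 3. Its log2 fold change was -2.44 with an adjusted p of 0.042, which rose to between 0.096 and 0.13 without young replicate 1, young replicate 3, aged replicate 2 or aged replicate 3. Prkaa1, the other catalytic subunit of the AMP-activated kinase, and Pparg, the PPAR gamma receptor, are given as relatives of these genes. Prkaa1 rose by 0.38 with an adjusted p of 0.029, which was 0.082 to 0.10 without young replicate 1, young replicate 3, aged replicate 2 or aged replicate 3. Pparg was higher in every aged than in every young library, 3.24 ± 0.611 against 1.10 ± 0.744 FPKM (SD, n = 3 each), with an adjusted p of 0.10 (edgeR). Gabpa, Gabpb1 and Gabpb2, the DNA-binding and the partner subunits of the factor whose motif is shown above, were picked for that motif. Gabpa had a log2 fold change of 0.10 with an adjusted p of 0.36. Gabpb1 rose by 0.50 with an adjusted p of 0.032, and Gabpb2 by 0.65 with an adjusted p of 0.025. Both calls were lost without young replicate 1, young replicate 3, aged replicate 2 or aged replicate 3, and that of Gabpb2 also without aged replicate 1, with adjusted p of 0.086 to 0.11 for Gabpb1 and 0.055 to 0.091 for Gabpb2. With FPKM rescaled to TPM the log2 fold changes of Gabpa, Gabpb1, Gabpb2 and Prkaa1 were -0.25, 0.13, 0.31 and 0.02, none of them past the threshold (limma).

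Of 18 further genes of mitochondrial transcription and RNA processing 1 was past both limits, where 36.3% of all genes tested were, by adjusted p alone 4 rose and 2 fell, and the median log2 fold change was 0.21. The gene past both limits was Mterf2, a member of the family of mitochondrial transcription termination factors. It fell from 6.54 ± 0.423 to 2.19 ± 0.295 FPKM (SD, n = 3 each), a log2 fold change of -1.65 with an adjusted p of 0.0018 (edgeR). The count past both limits was 3 without young replicate 2 and 2 without aged replicate 2.

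Of 16 further genes of mtDNA replication and repair 3 were past both limits, 2 higher and 1 lower, where 36.3% of all genes tested were, by adjusted p alone 3 rose and 2 fell, and the median was 0.13. Dna2, a nuclease and helicase of nucleus and mitochondria, had an FPKM of 0.561, 2.70 and 0.419 in young replicates 1 to 3 and 10.5 to 11.1 in the aged libraries. It rose by 3.12 on the log2 scale with an adjusted p of 0.016 (edgeR). Fen1, the flap endonuclease of DNA replication, had an FPKM of 3.10, 7.92 and 1.56 in young and 33.7, 33.1 and 34.7 in aged replicates 1 to 3. It rose by 2.97 with an adjusted p of 0.0080. Young replicate 2 was the highest young library for both, and without it the rises were 4.36 for Dna2 and 3.77 for Fen1. Lig3, the ligase that seals mtDNA, fell from 5.62 ± 0.787 to 2.80 ± 0.333 FPKM (SD, n = 3 each), a log2 fold change of -1.08 with an adjusted p of 0.0033, and without young replicate 3 it was -0.95, inside the fold limit.

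Of 15 further genes of nucleotide supply 6 were past both limits, 3 higher and 3 lower, a share close to the 36.3% of all genes tested, by adjusted p alone 5 rose and 6 fell, and the median was 0.30. Rrm2 and Rrm1, the subunits of ribonucleotide reductase, rose by 3.63 and 2.50 on the log2 scale with adjusted p of 0.039 and 0.0072 (edgeR), and by 5.73 and 3.21 without young replicate 2. Rrm2 had an FPKM of 0.945, 18.5 and 2.19 in young and 77.1, 99.2 and 92.8 in aged replicates 1 to 3, and its adjusted p rose to between 0.077 and 0.10 without young replicate 3 or any of the aged replicates. Samhd1, an enzyme that breaks down deoxynucleotides, rose by 1.08 with an adjusted p of 0.0020. Slc25a36, a mitochondrial carrier of pyrimidine nucleotides, fell from 49.0 ± 8.37 to 5.94 ± 0.167 FPKM (SD, n = 3 each), a log2 fold change of -3.13 with an adjusted p of 0.00080. Abat, an aminotransferase that also serves mitochondrial nucleotide metabolism, fell by 2.04 with an adjusted p of 0.0018. Slc25a4, the ADP and ATP carrier abundant in muscle and heart, fell from 77.6 ± 15.1 to 27.4 ± 0.419 FPKM, a log2 fold change of -1.59 with an adjusted p of 0.0023.

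Dna2, Fen1, Rrm1 and Rrm2 also serve the copying of nuclear DNA. The 10 proliferation markers made up 0.00851%, 0.0855% and 0.0127% of counts in young and 0.304%, 0.286% and 0.282% in aged replicates 1 to 3, and 8 of the 10 were higher past both limits. Their part in the rise of these 4 genes was not tested.

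**Figure D4:**
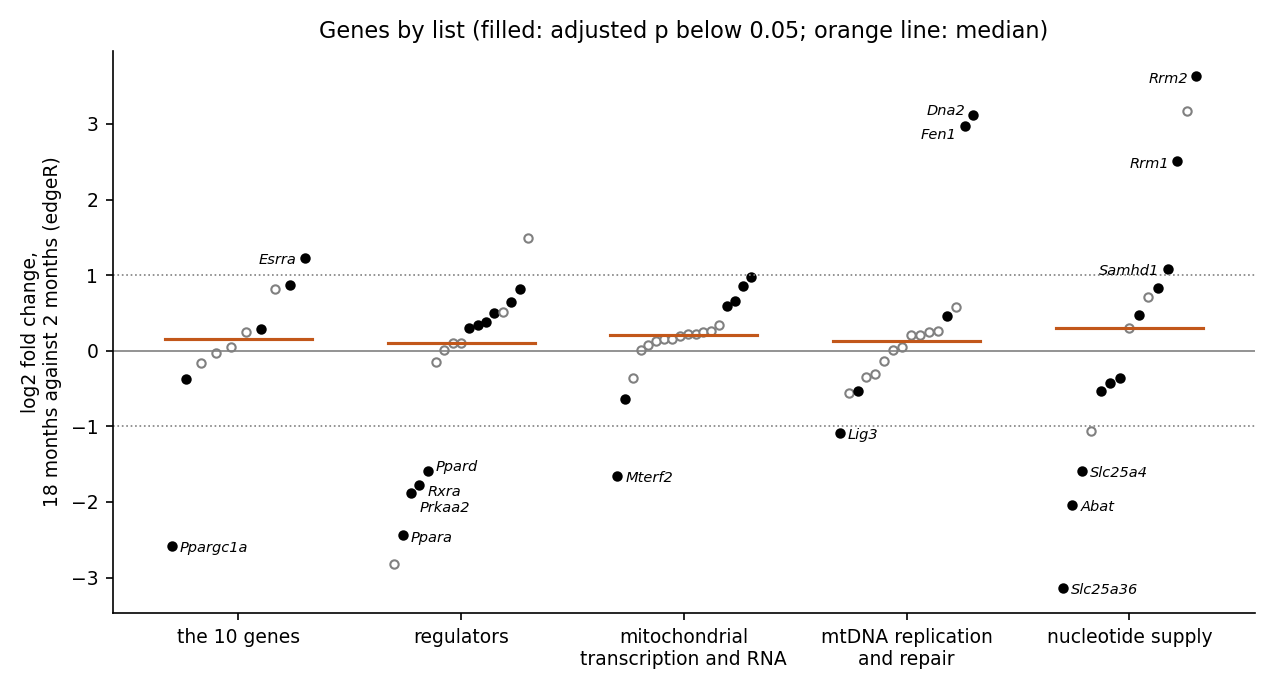
Log2 fold change, aged against young, of the 10 genes and of the 4 lists around them, 1 point per tested gene ordered by value; filled points have an adjusted p below 0.05, dotted lines mark the fold limits, orange lines the medians, and genes past both limits are named. The list medians lie between 0.10 and 0.30, and the nucleotide supply list spans -3.13 to 3.63.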

How the data were processed

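RNA had been taken from articular cartilage of WT mice with Trizol. Libraries were made from poly(A) RNA with a strand-marking dUTP protocol and read from both ends, per the study's methods. The submitters' processing notes name cutadapt 1.9, HISAT2 2.0.4, UMI-tools, StringTie 1.3.4d, DESeq2 and edgeR without their roles. The genome build, the annotation and the strand setting of the counting were not given in the sources used here. Deposited positions equal those of GENCODE M21 (GRCm38) for 8 of the 10 genes.

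The table deposited by the authors pairs raw read counts with FPKM values, the latter corrected for transcript length and library size. All 6 libraries were used and 0 columns of values per library were left out. Depth was 48171507 to 59085179 counts, and low counts such as those of Ppargc1a carry the larger counting error.

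The main test of the counts used edgeR 4.0.16 under R 4.3.3 (TMM scaling, filterByExpr, quasi-likelihood test, no block, aged against young), with Benjamini-Hochberg adjustment over all 20397 genes tested. A gene was past both limits with an adjusted p below 0.05 and an absolute log2 fold change above 1. Standard errors were derived from the log2 fold change and its F statistic. Levels of different genes were compared as FPKM, and overlap of the ages was judged on TMM-scaled counts. Ratios of FPKM were compared by two-sided exact permutation tests on log2 values. Promoter windows came from RefSeq (GRCm38.p6), and 9 of the 10 genes matched.

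Alternatives were median-of-ratios size factors, total counts alone, scaling without the 100 most abundant genes, no filter, DESeq2 1.42.0, limma 3.58.1 with trend on log2(FPKM + 0.1) and log2(FPKM + 1) where mean FPKM reached 0.1, limma on FPKM rescaled to TPM, a replicate block and leaving out each library. Summing aged replicates 2 and 3 was added after seeing the data. The fits were tested on simulated data.

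The 10 genes and all lists were chosen with earlier results of these data known. All 10 genes are named; of each list, the genes past both limits are named when 6 or fewer, otherwise the 3 largest rises and 3 largest falls. Of marker lists the summed levels are given. A gene of the nucleotide supply list is not reported here and was left out of that list's counts. Myh1, Myh4, Xist, Ddx3y, Gabpa, Gabpb1, Gabpb2, Prkaa1, Pparg and the overlapping genes were named after their values were seen.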

Additional observations from a re-analysis of the deposited data

How the results depend on the processing

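The rise of Esrra and Nrf1 and the fall of Ppargc1a kept their direction in every alternative that gave a value. Ppargc1a had no value in the limma fits on FPKM at either pseudocount, where its mean was below 0.1, so their counts cover 9 genes. The count of the 10 genes past both limits was 2. It was 1 with limma at either pseudocount, with TPM and with a replicate block, and 2 to 3 over the fits that each left out a library. The count by adjusted p alone was 5. It was 3 without a filter, with limma at either pseudocount, with TPM and with aged replicates 2 and 3 summed. It was 4 with total counts alone, 6 with DESeq2, and 3 to 7 on leaving out a library. With the sum, Tfam and Tfb2m had adjusted p of 0.11 and 0.11 (edgeR), and young replicate 2 decided the call of Ppargc1b. The median log2 fold change of the 10 genes, 0.15, was 0.23 with total counts alone, 0.23 with DESeq2, 0.33 and 0.29 with limma at pseudocounts of 0.1 and 1, and -0.20 with TPM. Rescaling to TPM moved the median of all genes by -0.35, and reversed Tfam (-0.063), Polg (-0.11) and Polg2 (-0.29). Relative to the median of all genes these were 0.31, 0.27 and 0.08. Nrf1 had an adjusted p of 0.063 with TPM. Polg2 ran from -0.058 (without young replicate 2) to 0.16 on leaving out a library. Twnk, -0.036 in the main fit, was -0.39 with TPM, or -0.014 relative to the median of all genes. It turned to 0.018 with median-of-ratios size factors, 0.036 with total counts and 0.043 with DESeq2. With limma at pseudocounts of 0.1 and 1 it was 0.043 and 0.035, and with the sum 0.0062. It ran from -0.10 to 0.020 on leaving out a library, above 0 without young replicate 1, young replicate 2 or aged replicate 3. Mitochondrial transcription and RNA genes past both limits numbered 1, but 2 with median-of-ratios size factors, total counts, DESeq2 and limma at 0.1, and 1 to 3 on leaving out a library. The genes past both limits among all tested numbered 7401, and 5258 with limma at a pseudocount of 1.

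The labels do not pair same-numbered young and aged libraries, and whether these shared a preparation was not given in the sources used here. Deviations of same-numbered young and aged libraries correlated at 0.034, 0.044 and -0.024 for numbers 1 to 3, and young replicate 3 correlated best with aged replicate 1 (0.053). With the replicate block the count by adjusted p alone was 2 (Nrf1 and Esrra), the count past both limits 1, and the adjusted p of Ppargc1a 0.060 (edgeR). The causes of these changes were not tested. Depth limits Ppargc1a most, with 30 counts in all over the aged libraries.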
